A study of Mus musculus with 8 samples.

Results

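The genes followed here were S100a8, S100a9, Retnlg, Csf3r, Cxcr2 and Mmp9, transcripts by which granulocytes are commonly recognised. They were chosen by name and not by a rule on their values, though with earlier results of these data known. They are 6 of the 32285 genes counted. Their levels were read as CPM, the UMIs of a gene per 1000000 UMIs, where a UMI (unique molecular identifier) marks an individual captured transcript. Levels were taken for each graft and for each of the authors' 12 annotated cell types among 22441 cells.

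The cells were CD45+ immune cells sorted from subcutaneous grafts of NIT-1, a beta cell line of NOD mouse origin, that was either WT or Rnls mutant. Recipients were immunodeficient NOD.scid mice that carried WT cells in the flank opposite to the Rnls mutant cells and were given splenocytes of recently diabetic NOD mice 4 days after grafting. Grafts were taken 10 or 17 days after the transfer, 4 for each genotype and day. The Rnls mutation lies in the grafted beta cells and not in the immune cells measured, so Rnls itself gives no check of the labels in these cells and was not analysed here. NOD.scid mice lack mature T and B cells of their own but have granulocytes, and the files do not tell granulocytes of the recipient from those of the transferred spleen.

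The 4 grafts of a genotype at a day were marked with hashtag antibodies and pooled into 1 droplet library, so genotype and library cannot be told apart at a day, and no value within a batch could be taken. The 4 libraries held between 2690 and 7617 cells. Totals per graft ran from 1742746 to 9729233 UMIs. The WT library of day 17 stood apart in depth, with a median of 5902 UMIs per cell against 3083 to 3453.5 in the others. Of 22399 barcodes, 42 occurred in more than 1 library, 2 granulocytes among them. Replicates are grafts separated by hashtag within a library, and p-values measure the spread between them.

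S100A8 and S100A9 are calcium-binding proteins that pair with each other to form calprotectin, a major protein of the neutrophil cytosol that also binds zinc and manganese and can signal through TLR4. Csf3r encodes the receptor for G-CSF, the growth factor that drives the production of neutrophils, and Cxcr2 encodes the chemokine receptor that draws neutrophils to CXCL1 and CXCL2. Mmp9 encodes gelatinase B, a matrix-degrading enzyme stored in gelatinase granules, and Retnlg encodes a resistin-like secreted protein of mouse bone marrow and neutrophils. Neutrophils carry little RNA compared with macrophages and lymphocytes, and make their granule proteins in order as they mature in the bone marrow, azurophil granules before specific and gelatinase granules.

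In GRCm38, the build of the files (mm10), S100a8 lies at chr3:90668978-90670035 on the forward strand and S100a9 at chr3:90692632-90695721 on the reverse strand, with 22596 bases between them. Csf3r lies at chr4:126024550-126044440, Cxcr2 at chr1:74153989-74161246, Retnlg at chr16:48872621-48874496 and Mmp9 at chr2:164940780-164955850, all on the forward strand. All 6 are protein-coding, and no other annotated gene overlaps any of them. Promoters were taken from RefSeq (GRCm38.p6), from 250 bases before to 50 bases after each gene's start. The RefSeq start can differ from the position given above, as it does for S100a8. Those of S100a8 (chr3:90668821-90669120) and S100a9 (chr3:90695672-90695971, reverse strand) are shown because these neighbours are compared throughout, and that of Csf3r (chr4:126024409-126024708) because it is the member with the broadest expression. Capitals mark matches, on either strand, to PU.1 (GAGGAA), C/EBP (TTGCNNAA) or the TATA box (TATAAA), counting positions from 1 at the 5′ end.
S100a8: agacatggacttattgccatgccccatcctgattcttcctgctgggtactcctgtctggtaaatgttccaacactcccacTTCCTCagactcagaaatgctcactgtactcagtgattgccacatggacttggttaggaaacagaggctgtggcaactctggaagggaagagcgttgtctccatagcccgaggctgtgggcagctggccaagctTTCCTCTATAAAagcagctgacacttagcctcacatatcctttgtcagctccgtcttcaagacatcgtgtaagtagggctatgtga
S100a9: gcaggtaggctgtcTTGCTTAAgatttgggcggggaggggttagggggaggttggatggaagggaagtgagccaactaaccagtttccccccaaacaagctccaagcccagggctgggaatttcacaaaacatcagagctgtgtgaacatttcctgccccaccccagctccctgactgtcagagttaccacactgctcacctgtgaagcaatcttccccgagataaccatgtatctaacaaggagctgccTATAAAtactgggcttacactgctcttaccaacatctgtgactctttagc
Csf3r: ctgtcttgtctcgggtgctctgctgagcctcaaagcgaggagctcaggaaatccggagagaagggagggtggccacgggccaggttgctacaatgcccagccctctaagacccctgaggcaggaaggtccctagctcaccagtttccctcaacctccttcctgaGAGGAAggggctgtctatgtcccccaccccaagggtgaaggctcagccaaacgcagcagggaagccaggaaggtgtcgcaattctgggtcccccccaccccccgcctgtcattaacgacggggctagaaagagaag
The S100a8 sequence holds 2 PU.1 matches on the reverse strand, at positions 81 and 215, the latter directly followed by a TATA match at 221. The S100a9 sequence holds a C/EBP match at 15 and a TATA match at 251, and no PU.1 match. That TATA match begins at the start base used for S100a9, while the TATA match of S100a8 lies before its start. The Csf3r sequence holds a PU.1 match at 165 and neither other motif. The promoter of Cxcr2 holds 2 PU.1 matches and that of Retnlg 1 C/EBP match. Among 32851 mouse promoters of the same length, 28.3% held the PU.1 letters, 10.8% the C/EBP letters and 13.6% the TATA letters, so such matches are common and are given as a description only.

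S100a8 and S100a9 were carried almost wholly by the 369 cells annotated Granulocyte, which made up a single cluster. These cells gave 93.5% of all S100a8 UMIs (12448 of 13314) and 98.9% of all S100a9 UMIs (22871 of 23122). Retnlg was as restricted, with 99.1% of its 1110 UMIs there, followed by Cxcr2 with 84.6% and Mmp9 with 63.7%. Csf3r was the exception, since 16.1% of its 3454 UMIs came from granulocytes, 64.8% from macrophages and 18.1% from monocytes. The cell types were made from the expression of these same cells, so a type against the rest is a description and was not tested.

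Over the 16 grafts, granulocytes held 37301 ± 17228 CPM of S100a9 (mean ± SD) and 17427 ± 12020 CPM of S100a8. Retnlg stood at 1137 ± 1979 CPM and Csf3r at 1010 ± 327 CPM. Cxcr2 at 505 ± 239 CPM and Mmp9 at 362 ± 178 CPM were the lowest of the 6. The library counts transcript ends, so these levels do not scale with transcript length. S100a9 exceeded S100a8 in the granulocytes of all 16 grafts. The means of the neighbours Retnlg and Csf3r, and of the neighbours Cxcr2 and Mmp9, differed by less than their SDs. These differences were not tested within grafts.

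**Figure D1:**
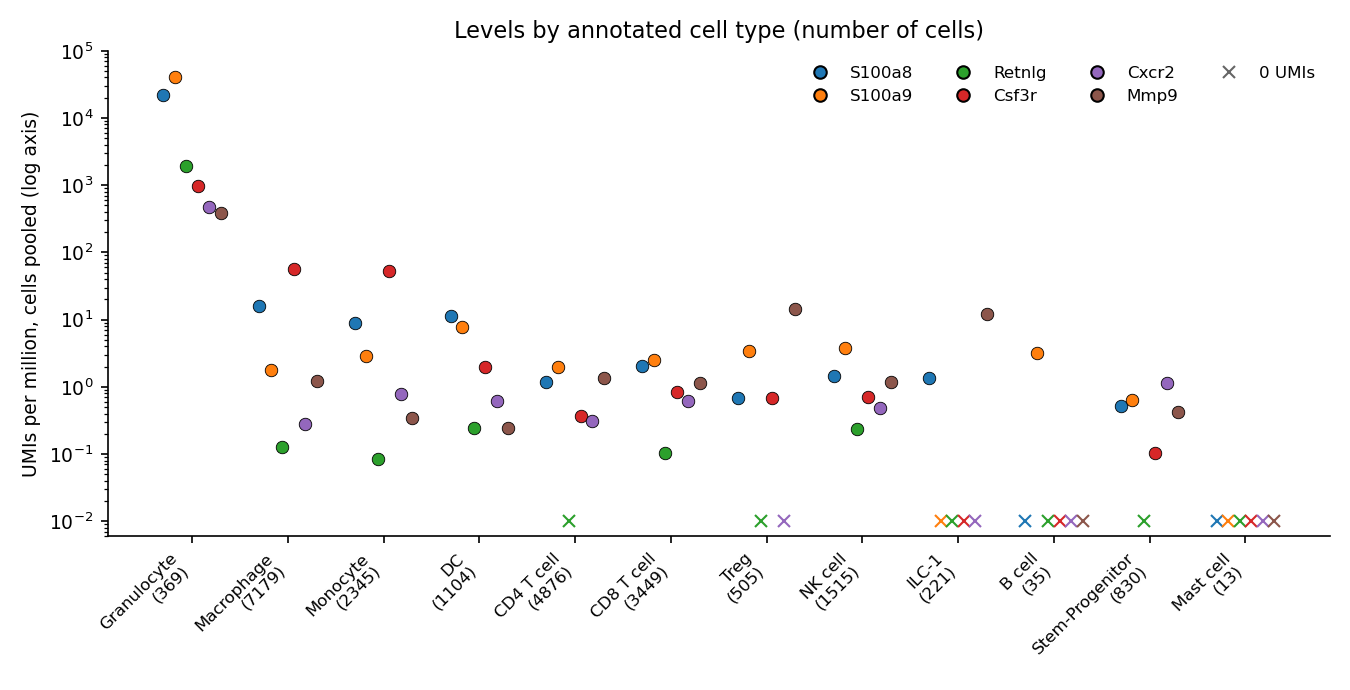
Level of each gene (CPM, log axis) in each annotated cell type, with the cells of all grafts pooled and crosses for genes with 0 UMIs. Granulocytes stand at 387 CPM or more for all 6 genes, while outside them Csf3r in macrophages (56.8 CPM) and monocytes (53.5 CPM) is the highest point.

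The annotation was described by markers, which is no independent check, since the types were made from the expression of these same cells. In granulocytes all 10 neutrophil markers were detected, the 6 genes among them. Their summed level was between 55622 and 114362 CPM in the 4 libraries, most of it S100a8 and S100a9. The remaining markers of that list, Ly6g, Hdc, G0s2 and Il1r2, stood at 131, 2125, 4349 and 1177 CPM. Ly6g was detected in 44 granulocytes (11.9%), which held 39.1% of its UMIs. None of the 4 mast cell, 3 B cell, 4 beta cell or 3 erythroid markers was detected, and of basophil and eosinophil markers 1 of 7 and 1 of 5 were present, with 1 UMI of Cpa3 and 2 UMIs of Siglecf. Of 4 NK cell and ILC1 markers 1 was detected (summed level 0 to 6.79 CPM), of 5 T cell markers 4 (34.8 to 74.7 CPM) and of 5 dendritic cell markers 2 (0 to 27.3 CPM). Monocyte markers summed to 732 to 903 CPM, mostly Plac8 (785 CPM against 623 CPM in the other cells), Chil3 stood at 14.0 against 11.5 CPM, and Ly6c2 and Ccr2 stood at 22.8 and 7.01 CPM against 136 and 237 CPM in the other cells. Macrophage markers summed to 112 to 137 CPM in 3 libraries and to 633 CPM in the Rnls mutant library of day 17. The neutrophil markers were thus present in every library, and those of basophils, eosinophils and mast cells at or near 0.

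Granulocytes were shallow cells. Their median was 1319 UMIs and 598 genes against 3564 UMIs and 1550 genes in the other cells. No cell of the table had fewer than 1001 UMIs, and 155 of the 369 granulocytes (42.0%) lay between 1001 and 1250, compared with 325 of 22072 other cells (1.47%). How many granulocytes lay under that limit is not known here. The crowding near that limit was 54.0% and 45.3% of granulocytes in WT and Rnls mutant grafts at day 10 and 57.1% in Rnls mutant grafts at day 17. In WT grafts at day 17 it was 1.75%, with a median of 2213 UMIs per granulocyte against 1214.5 to 1286 in the other libraries.

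Within granulocytes the genes were unevenly spread over cells. S100a9 was detected in 311 cells (84.3%), with a median of 23 UMIs, quartiles of 2 and 77 and a maximum of 1510. S100a8 was detected in 272 cells (73.7%), with a median of 8 UMIs, quartiles of 0 and 30 and a maximum of 1242. Both were seen together in 262 cells (71.0%), S100a9 without S100a8 in 49 and S100a8 without S100a9 in 10. Csf3r, with a median of 1 UMI, was detected in 242 cells (65.6%), Cxcr2 in 156 (42.3%), Mmp9 in 139 (37.7%) and Retnlg in 87 (23.6%). With every cell thinned to 1000 UMIs these shares were 81.8% for S100a9, 70.7% for S100a8, 54.2% for Csf3r, 32.0% for Cxcr2, 29.8% for Mmp9 and 20.3% for Retnlg. All 6 genes were found in 20 cells, 3 of them in 104 cells, which was the most frequent number, and none in 13.

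Retnlg was concentrated in very few cells. The 2 cells with most Retnlg held 259 and 220 UMIs, together 43.2% of all Retnlg UMIs in the study. The 5 highest cells held 710 of 1110 (64.0%), and all 5 came from graft 1 of the WT group at day 17. The 2 highest cells also held 145 of the 178 UMIs of Camp and 235 of the 285 UMIs of Ngp, which encode the specific granule proteins cathelicidin and neutrophilic granule protein. They carried 670 and 1242 UMIs of S100a8 and 703 and 1510 of S100a9. Without the 5 cells, Retnlg in the granulocytes of that graft was 977 CPM in place of 8181 CPM, and S100a8 was 25278 CPM in place of 50197 CPM.

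Transcripts of azurophil granules were close to absent from granulocytes. Mpo, Elane, Ctsg and Ms4a3 had 0 UMIs there and Prtn3 had 1. Among specific and gelatinase granule genes, Lcn2 (lipocalin, an iron-sequestering protein) stood at 804 CPM in 86 cells, Mmp8 at 191 CPM in 42 cells and Ltf at 87.6 CPM in 21 cells. Camp and Ngp were confined to 7 cells each, with 165 and 280 UMIs.

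The receptors and late transcripts ranged from few cells to most, with Cxcr4 and Tlr2 detected in 43 and 75 granulocytes. The receptors Ccrl2 and Clec4e stood at 6646 and 2842 CPM and were detected in 332 and 311 of the 369 cells. Acod1, which makes itaconate, stood at 4371 CPM in 333 cells. Cxcl2, which encodes a ligand of CXCR2, reached 18155 CPM in granulocytes and was detected in 303 of them (10362 UMIs), against 504 CPM in the other cells. The other cells nevertheless held most of the Cxcl2 UMIs, as granulocytes gave 16.8%. Cxcl1 stood at 256 CPM in 31 granulocytes, and Csf3, which encodes the ligand of Csf3r, had 85 UMIs in all cells and 4 in granulocytes. Among transcription factors, Cebpb stood at 5628 CPM and Spi1 at 850 CPM in granulocytes, Cebpa at 5.26 CPM and Gfi1 at 0 UMIs.

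Of the other S100 genes, S100a6 and S100a11 were at 4366 and 2048 CPM in granulocytes and 2281 and 599 CPM elsewhere, while S100a10 and S100a4 were at 82.3 and 54.3 CPM against 1899 and 1243 CPM elsewhere. Tlr4, a receptor for S100A8 and S100A9, was at 342 CPM in granulocytes and 35.2 CPM in the other cells. Of the inhibitors of MMP9, Timp1 and Timp3 had 0 UMIs in granulocytes and Timp2 stood at 147 CPM (84 UMIs in 61 cells) against 198 CPM elsewhere. All 6 NADPH oxidase genes were present in granulocytes, between 307 CPM (Cybb) and 1193 CPM (Cyba).

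Outside granulocytes the 6 genes fell into different orders. Csf3r was high in both other phagocyte types, with 60.4 ± 29.9 CPM in monocytes and 54.6 ± 9.78 CPM in macrophages over 16 grafts. These means differed by less than either SD, and the difference within grafts was not tested. All other types were at 1.94 CPM or below when pooled. Among clusters, Csf3r was highest in the monocyte cluster led by Adgre4, Pparg, Gngt2 and Ace (96.3 CPM) and lower in the one led by Ly6c2 and Vcan (46.4 CPM). The 6 macrophage clusters ranged from 25.2 to 73.7 CPM.

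S100a8 outside granulocytes was highest in macrophages, at 14.8 ± 9.82 CPM over 16 grafts, followed by monocytes at 8.84 ± 6.50 CPM. The difference was smaller than either SD and was not tested within grafts. Of 7179 macrophages, 453 (6.31%) had an S100a8 UMI, 352 of them a single UMI and 3 more than 5, with a maximum of 18. After thinning, 1.38% of macrophages and 0.981% of monocytes had one. The level was 32.2 CPM in the macrophage cluster led by Inhba, Mmp12, Nos2 and Chil1 (1735 cells) and 21.7 CPM in the cluster led by Wfdc21, Lyz1, Fn1 and Arg1 (651 cells), and between 1.89 and 12.1 CPM in the other 4 clusters.

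The macrophage signal was S100a8 nearly without S100a9. Of 453 macrophages with S100a8, 447 had no S100a9 UMI. S100a8 made up 89.8% of the S100a8 and S100a9 UMIs of macrophages (95% exact binomial interval 87.3 to 92.0), compared with 35.2% (34.7 to 35.7) in granulocytes. In the libraries the macrophage share ranged from 82.8% to 97.2% and the granulocyte share from 30.2% to 41.2%. Monocytes lay between them at 75.7% (67.6 to 82.7). Intervals here and below cover counting error only. The macrophage share lay above the granulocyte share in all 4 libraries.

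**Figure D2:**
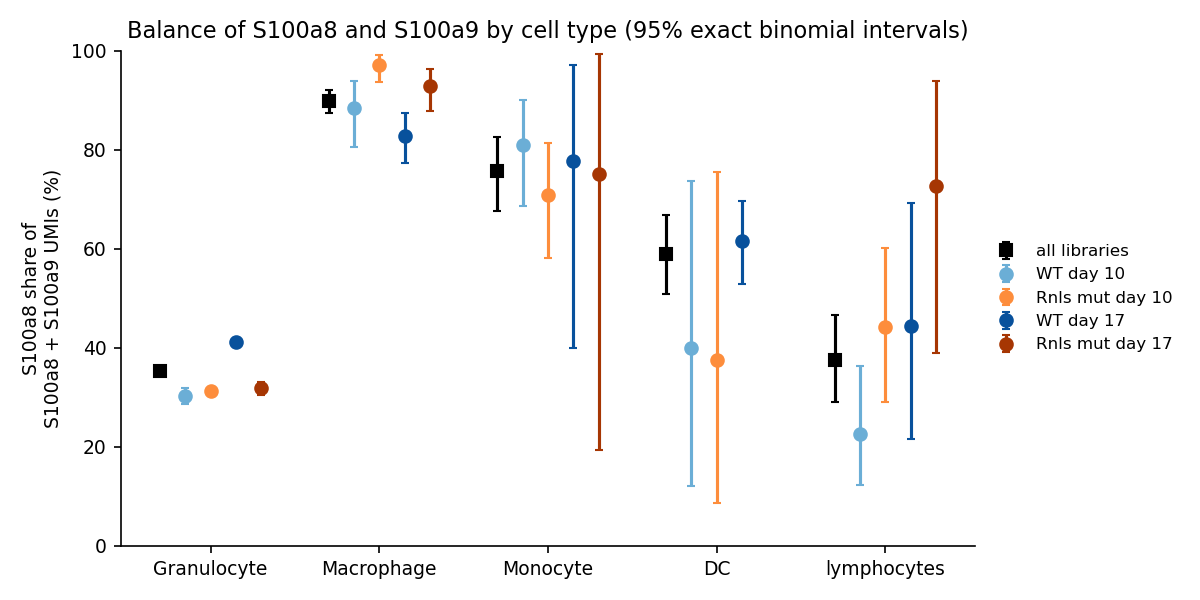
S100a8 as a percentage of S100a8 plus S100a9 UMIs, by cell type, for all libraries together (squares) and for each library (circles), with 95% exact binomial intervals. Macrophages (82.8% to 97.2%) lie above granulocytes (30.2% to 41.2%) in every library. Dendritic cells of the Rnls mutant library of day 17 had no UMI of either gene and are not drawn.

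In granulocytes the balance was narrower between grafts than the levels. At day 10, S100a8 was 36.9%, 26.9%, 31.1% and 27.9% of the pair in WT grafts 1 to 4 and 33.2%, 32.7%, 30.8% and 25.2% in Rnls mutant grafts. At day 17 it was 42.6%, 8.28%, 49.3% and 36.8% in WT grafts and 28.3%, 18.0%, 35.6% and 32.7% in Rnls mutant grafts. The 8.28% and 49.3% come from grafts 2 and 3, which held 2 and 4 granulocytes.

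The S100a8 of dendritic cells (11.2 CPM pooled over 1104 cells) came from 1 cell of graft 3 of the WT group at day 17, which held 85 S100a8 and 50 S100a9 UMIs. Without that cell the level was 0.851 CPM and the S100a8 share 33.3% (14.6 to 57.0). Its total of 8346 UMIs lay at the 18th percentile of the dendritic cells of its library, taken over all dendritic cell clusters. The cell belonged to the cluster led by Siglech, Ly6d and Ccr9, and its depth was not compared within that cluster. Doublets were not called, so whether it was a doublet was not tested.

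Lymphocytes, which do not make these transcripts as a rule, gave the level that free RNA can leave in a droplet. In 10601 T, B, NK and ILC1 cells S100a8 stood at 1.44 CPM (47 UMIs) and S100a9 at 2.40 CPM (78 UMIs), 15107 and 16725 times below granulocytes. The share of lymphocytes with an S100a8 UMI was 0.443% at a median of 2646 UMIs per cell, against 6.31% of macrophages at 4719 UMIs and 3.41% of monocytes at 4530 UMIs. After thinning, the shares were 0.208%, 1.38% and 0.981%. S100a8 in macrophages and monocytes therefore lay above this level. S100a9 in macrophages, at 1.78 CPM pooled, lay below the 2.40 CPM of lymphocytes, and the 2.83 CPM of monocytes (33 UMIs) above it. In the WT and Rnls mutant libraries of day 10, macrophages held 1.56 and 0.785 CPM and lymphocytes 3.47 and 1.95 CPM. In those of day 17 macrophages held 3.41 and 0.899 CPM, above the 2.35 and 0.717 CPM of lymphocytes. S100a9 in macrophages was therefore not told apart from background, and the cause of the difference between libraries was not tested.

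Lymphocyte S100a8 was 1.02, 1.55, 1.88 and 1.91 CPM in the WT and Rnls mutant libraries of day 10 and the WT and Rnls mutant libraries of day 17, where all cells of the library stood at 35.3, 139, 327 and 90.4 CPM. Lymphocyte Retnlg rested on 2 UMIs, Cxcr2 on 13 (0.399 CPM) and Csf3r on 18 (0.553 CPM). Monocyte Cxcr2 (0.770 CPM, 9 UMIs) and Retnlg (1 UMI) and macrophage Cxcr2 (0.279 CPM) and Retnlg (5 UMIs) rested on so few UMIs that no expression is read from them.

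Mmp9 was the member with the least contrast, as lymphocytes held 2.09 CPM (68 UMIs). Of these, 21 UMIs came from 18 of 505 regulatory T cells in 10 of 16 grafts, which stood at 14.4 CPM pooled and between 8.50 and 18.8 CPM in the 4 libraries. ILC-1 cells held 12.2 CPM from 9 UMIs in 5 cells of 3 grafts. Pooled over all grafts, macrophages (1.22 CPM) and monocytes (0.342 CPM) were below the lymphocyte level, which includes the regulatory T cells and ILC-1 cells. CD4 T cells, NK cells and CD8 T cells held 1.36, 1.20 and 1.14 CPM, close to macrophages. The macrophage clusters led by Apoe and Ccl8 and by Retnla and Fcrls held 3.16 and 2.69 CPM, and the others between 0.154 and 0.397 CPM. Of the macrophage UMIs most came from WT grafts of day 17 (30 UMIs, 2.49 CPM pooled and 4.48 ± 3.78 CPM over 4 grafts). Lymphocytes held 3.76 CPM there, with ILC-1 cells at 35.3 CPM among them. Macrophage Mmp9 was therefore not told apart from background.

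Granulocytes were a small share of the cells and differed most between the genotypes at day 10. In WT grafts 1 to 4 they were 0.963%, 0.356%, 0.574% and 0.751% of CD45+ cells (18, 7, 11 and 14 cells). In Rnls mutant grafts they were 3.19%, 3.23%, 3.25% and 2.01% (53, 49, 53 and 37 cells). Every Rnls mutant graft lay above every WT graft, and the means were 2.92% ± 0.605 and 0.661% ± 0.258 (SD over 4 grafts). Their difference of 2.26 points had p = 0.0286 in a two-sided exact permutation test, the smallest p that 70 assignments can give. Its adjusted p over the 12 cell types was 0.343, so it did not pass the correction. A cell type at the smallest p cannot pass unless other types have small p-values too, so this correction cannot decide on granulocytes alone. With the share taken among myeloid cells, the means were 8.23% and 1.63%. Among cells with at least 1500 UMIs they were 0.732% and 0.0970%.

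At day 17 the share varied between grafts more than between genotypes. It was 4.46%, 0.571%, 0.360% and 3.40% in WT grafts (39, 2, 4 and 12 cells) and 0.518%, 0.369%, 2.47% and 3.66% in Rnls mutant grafts (10, 6, 34 and 20 cells). Both genotypes held grafts at 0.571% or less and grafts at 3.40% or more. The means of 2.20% ± 2.05 and 1.75% ± 1.59 differed by -0.443 points, Rnls mutant minus WT (exact permutation p = 0.743, adjusted 0.891). From day 10 to day 17 the mean differed by 1.54 points in WT grafts (exact permutation p = 0.343, adjusted 0.514) and by -1.16 points in Rnls mutant grafts (p = 0.257, adjusted 0.309). These tests depended on which cells were counted. The difference in WT grafts was 1.89 points among cells with at least 1500 UMIs and that in Rnls mutant grafts -5.64 points of myeloid cells (exact permutation p = 0.0286 for both, the smallest possible and unadjusted). A limit of 1500 UMIs also removes granulocytes, whose median in WT grafts was 1236.5 UMIs at day 10 and 2213 at day 17. It therefore does not separate the share of granulocytes from their depth. Among cells with at least 1500 UMIs, the mean at day 17 was 1.98% in WT and 0.307% in Rnls mutant grafts, a difference of -1.68 points. The change in the genotype difference between the days, -2.70 points, had p = 0.0731 in an exact permutation test over 4900 assignments.

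**Figure D3:**
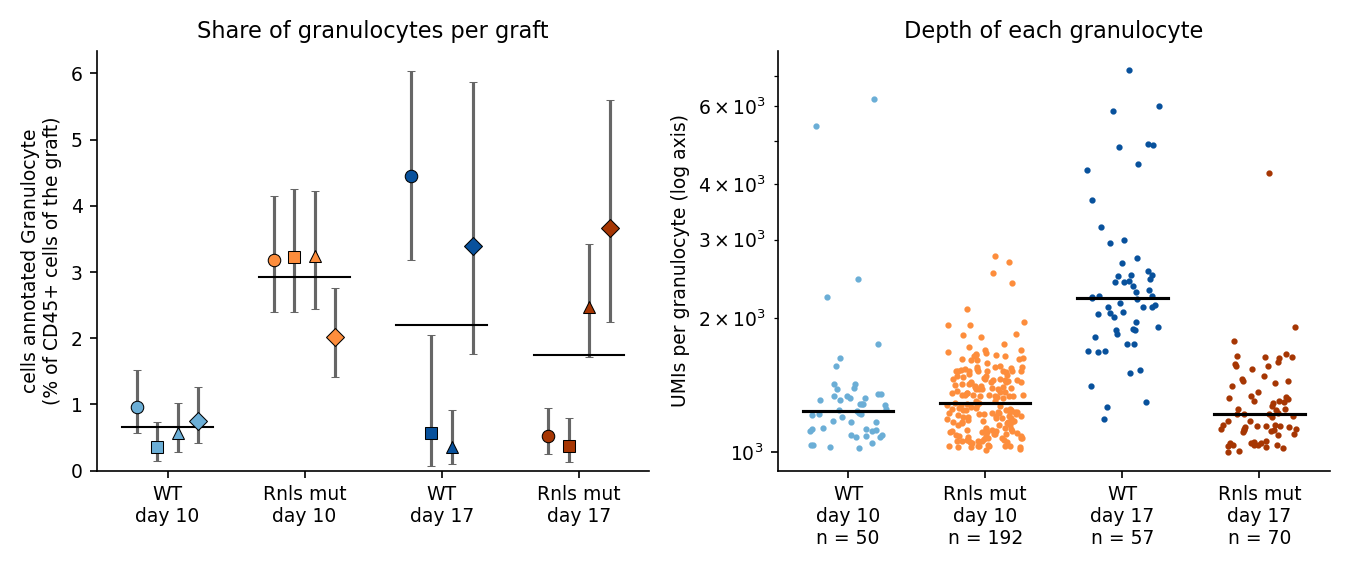
Left, granulocytes as a percentage of the CD45+ cells of each graft, with 95% exact binomial intervals, symbols for grafts 1 (circle), 2 (square), 3 (triangle) and 4 (diamond) and a line at the mean of 4 grafts. Right, UMIs of each granulocyte on a log axis with a line at the median, where WT grafts of day 17 stand apart at 2213 UMIs.

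Summed over all CD45+ cells, S100a8 and S100a9 were highest in the graft with the largest share of granulocytes in each group except WT at day 10, where graft 4 was highest and graft 1 held the largest share. In such sums, fewer granulocytes and less RNA per granulocyte cannot be told apart. At day 10, S100a8 stood at 39.0, 16.2, 28.4 and 59.2 CPM in WT grafts 1 to 4 and at 159, 150, 192 and 59.4 CPM in Rnls mutant grafts. S100a9 stood at 55.4, 33.1, 57.8 and 148 CPM in WT grafts and at 293, 295, 425 and 159 CPM in Rnls mutant grafts. For both genes the groups did not overlap, although graft 4 of each genotype lay side by side for S100a8 (59.2 and 59.4 CPM).

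Cxcr2 and Mmp9 showed the same order at day 10. Cxcr2 was 1.20 to 1.99 CPM in WT grafts and 3.44 to 7.12 CPM in Rnls mutant grafts, and Mmp9 was 1.11 to 1.33 and 2.16 to 4.45 CPM. Retnlg (0.124 to 7.94 and 2.80 to 9.45 CPM) and Csf3r (15.7 to 27.5 and 21.8 to 35.5 CPM) overlapped. Thus 4 of the 6 genes had no overlap with the Rnls mutant grafts higher, as had 5.56% of the 12560 genes tested.

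None of the 6 passed the test at day 10. The log2 fold change, Rnls mutant over WT, was 1.95 ± 1.02 (SE) for S100a8 and 1.96 ± 0.963 for S100a9 (adjusted p = 0.736 and 0.725, quasi-likelihood test of edgeR, adjusted over all genes by the Benjamini-Hochberg procedure). It was 1.54 ± 0.703 for Cxcr2, 1.51 ± 0.611 for Mmp9, 1.19 ± 1.38 for Retnlg and 0.32 ± 0.265 for Csf3r, with adjusted p between 0.627 and 0.933. In this comparison 0.0796% of the genes were called, or 10 genes, and 888 had an unadjusted p under 0.05, Cxcr2 (0.0442) and Mmp9 (0.0255) among them. The median of the 6 genes was 1.52 and that of all genes 0.00 on the log2 scale. Without the granulocytes, the log2 fold change was 0.76 for S100a8, -0.26 for S100a9, 0.41 for Mmp9 and -0.07 for Csf3r.

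At day 17 the groups overlapped for all 6 genes, while 1.26% of all genes were higher and 2.33% lower without overlap. S100a8 was 1011, 8.05, 36.6 and 430 CPM in WT grafts 1 to 4 and 40.4, 20.7, 151 and 336 CPM in Rnls mutant grafts. S100a9 was 1359, 70.1, 19.9 and 729 CPM in WT grafts and 87.9, 69.0, 249.7 and 664 CPM in Rnls mutant grafts. The high values were those of the grafts with many granulocytes, 1 and 4 of the WT group and 3 and 4 of the Rnls mutant group. The log2 fold change was -1.40 ± 1.00 for S100a8 and -0.97 ± 0.940 for S100a9 (edgeR adjusted p = 0.737 and 0.830), and -0.24 and -0.03 without graft 1 of the WT group. For Retnlg it was -3.61 ± 1.36 (edgeR adjusted p = 0.538), where the WT mean rested on graft 1 with 164 CPM against 0.719 to 9.64 CPM in the other WT grafts, and it was 0.21 without that graft. None of the 6 was called, beside 0.0159% of all genes, and no change in the genotype difference between the days was called for them either (edgeR adjusted p between 0.401 and 0.961, beside 0.143% of all genes).

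**Figure D4:**
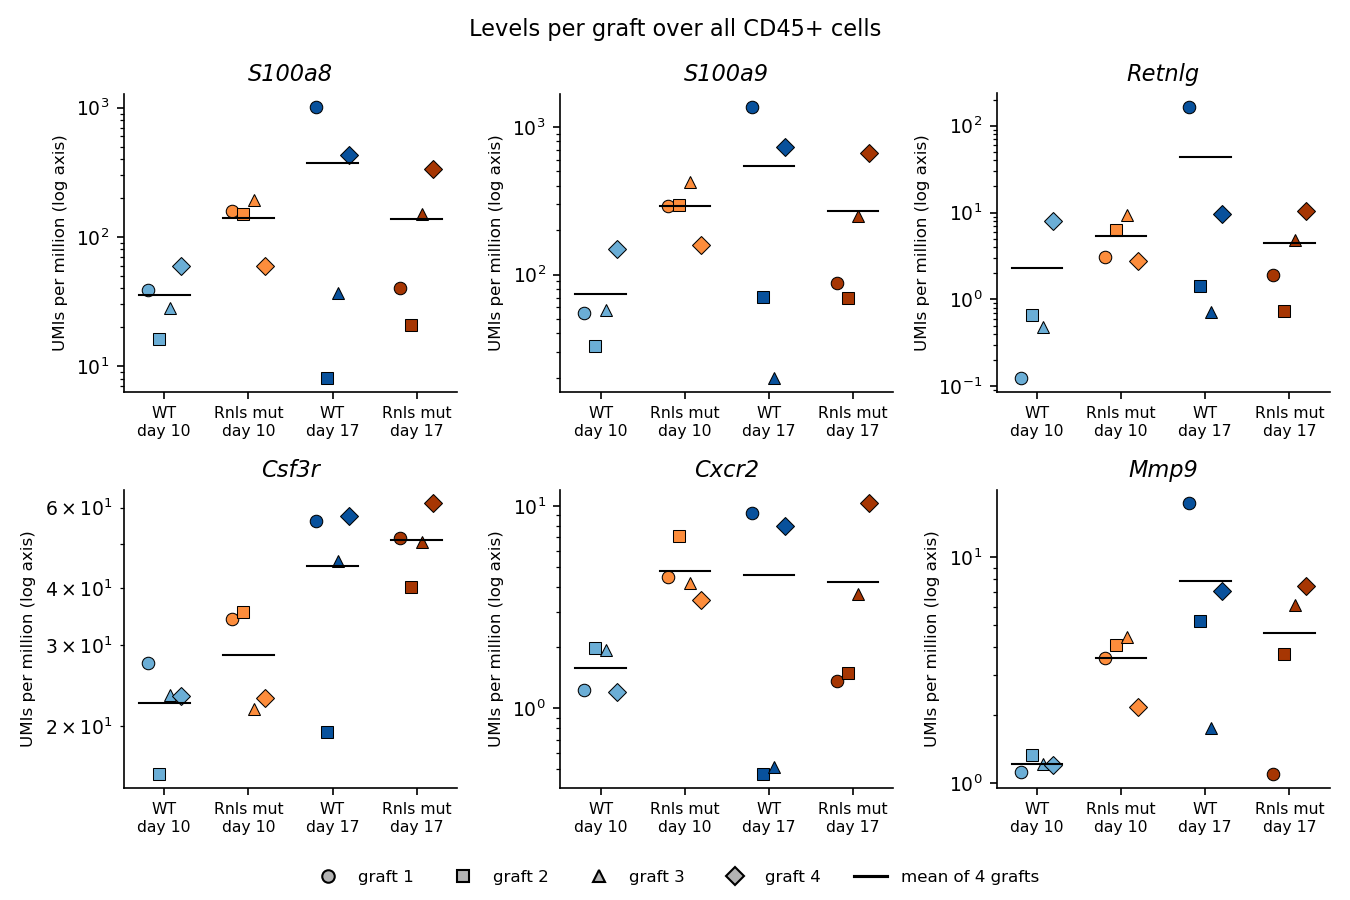
Level of each gene over all CD45+ cells of a graft (CPM, log axis) by genotype and day, with symbols for grafts and a line at the mean of 4 grafts. At day 10 the Rnls mutant grafts lie above the WT grafts for S100a8, S100a9, Cxcr2 and Mmp9, and at day 17 the grafts of a genotype spread over more than 10-fold for S100a8.

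Between the days, 5 of the 6 genes rose in WT grafts, among 37.9% of all genes called and 20.5% called higher. From day 10 to day 17 the log2 fold change was 3.25 ± 1.07 for S100a8, 2.76 ± 0.991 for S100a9, 4.13 ± 1.30 for Retnlg, 2.54 ± 0.608 for Mmp9 and 0.92 ± 0.268 for Csf3r (edgeR adjusted p = 0.0252, 0.0384, 0.0201, 0.00408 and 0.0137). Cxcr2 at 1.32 ± 0.759 did not pass (edgeR adjusted p = 0.185). Only Mmp9 had no overlap, with 1.11 to 1.33 CPM at day 10 and 1.75 to 17.4 CPM at day 17, where 20.4% of all genes had none in that direction. The rise of S100a8 and S100a9 rested on WT grafts 1 and 4 of day 17, since grafts 2 and 3, at 8.05 and 36.6 CPM of S100a8, lay below the highest WT graft of day 10 (59.2 CPM).

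The calls for S100a8, S100a9 and Retnlg in WT grafts each depended on single grafts. Without graft 1 of day 17, the log2 fold change was 2.08 for S100a8, 1.82 for S100a9, 0.37 for Retnlg and 1.64 for Mmp9. Over the grafts left out in turn, the highest adjusted p was 0.115 for S100a8, 0.150 for S100a9 and 0.850 for Retnlg, and 0.0391 for Mmp9 and 0.0498 for Csf3r. Without the granulocytes, S100a8 was at 1.22 (edgeR adjusted p = 0.125) and S100a9 at 0.91 (adjusted p = 0.140), while Mmp9 at 1.89 (adjusted p = 0.0200) and Csf3r at 0.74 (adjusted p = 0.0391) still passed. The 1 dendritic cell of graft 3 described above gave 85 of the 297 S100a8 and 50 of the 106 S100a9 UMIs left in WT grafts of day 17. With every cell thinned to 1000 UMIs, S100a9 was at 2.31 (edgeR adjusted p = 0.0505) and Mmp9 at 2.28 (adjusted p = 0.0519).

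In Rnls mutant grafts only Csf3r rose from day 10 to day 17, among 46.7% of genes called and 24.3% called higher. Csf3r was 34.3, 35.5, 21.8 and 23.0 CPM in grafts 1 to 4 at day 10 and 51.6, 40.2, 50.5 and 61.4 CPM at day 17, without overlap, as were 24.1% of all genes in that direction. The log2 fold change was 0.80 ± 0.266 (edgeR adjusted p = 0.0216), and 1.08 without the granulocytes (adjusted p = 0.00369). With every cell thinned to 1000 UMIs it was 0.32 (edgeR adjusted p = 0.286), and leaving out 3 of the 16 grafts in turn also ended the call (highest adjusted p = 0.0662). S100a8 (-0.10), S100a9 (-0.17), Retnlg (-0.67), Cxcr2 (-0.54) and Mmp9 (0.20) did not pass. The WT and Rnls mutant comparisons share no grafts, and the difference between them is the test of the change in genotype difference given above.

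Macrophages held most of the Csf3r UMIs, and their share of CD45+ cells was 17.0% ± 6.14 in WT and 15.9% ± 9.01 in Rnls mutant grafts at day 10, and 48.9% ± 23.7 and 61.1% ± 3.23 at day 17 (SD, n = 4 each). Within macrophages, Csf3r stood at 49.8 ± 5.15 CPM and 50.4 ± 9.42 CPM at day 10 and at 56.4 ± 13.5 CPM and 61.6 ± 7.59 CPM at day 17. The log2 fold change within macrophages was 0.03 ± 0.164 in WT and 0.13 ± 0.163 in Rnls mutant grafts (edgeR adjusted p = 0.935 and 0.556), in a population where 25.1% and 42% of genes were called.

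Within granulocytes, the levels of S100a8 and S100a9 at day 10 were close in the genotypes, with a wide spread. S100a8 was 9226, 11546, 15652 and 19793 CPM in WT grafts 1 to 4 and 17011, 13899, 18194 and 8739 CPM in Rnls mutant grafts. S100a9 was 15758, 31369, 34741 and 51101 CPM in WT grafts and 34182, 28626, 40795 and 25965 CPM in Rnls mutant grafts. The groups overlapped for both, as for the other 4 genes, where 6.26% of genes were higher and 6.47% lower without overlap. In the test, which took 12 grafts with at least 10 granulocytes (3 WT and 4 Rnls mutant at day 10, 2 WT and 3 Rnls mutant at day 17), the log2 fold change was -0.00 ± 0.290 for S100a8 and -0.03 ± 0.311 for S100a9 (edgeR adjusted p = 0.998 and 0.981).

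All 6 genes passed the filter on low counts in granulocytes and none was called between genotypes at day 10, beside 0.971% of 927 genes. Retnlg (-0.81 ± 0.758), Csf3r (0.22 ± 0.311), Cxcr2 (0.50 ± 0.438) and Mmp9 (0.54 ± 0.426) had adjusted p between 0.656 and 0.842. The 9 genes called were all lower in Rnls mutant grafts, and those with the smallest p were the MHC class II genes H2-Eb1, H2-Aa and H2-Ab1 and the class II chaperone Cd74. H2-Aa was at 1162 CPM in the 50 WT granulocytes, 85 UMIs in 14 cells, and at 85.0 CPM in the 192 Rnls mutant granulocytes. Macrophages of the same libraries held 6785 and 6187 CPM, and lymphocytes 93.8 and 42.0 CPM. The part of RNA from other cells in these counts was not tested.

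At day 17, S100a8 in granulocytes was 50197, 1828, 5658 and 38096 CPM in WT grafts 1 to 4 and 20113, 10872.5, 15148 and 22860 CPM in Rnls mutant grafts. S100a9 was 67774, 20250, 5824 and 65442 CPM in WT grafts and 50842, 49606, 27432 and 47105 CPM in Rnls mutant grafts. The low WT values came from the 2 grafts with 2 and 4 granulocytes, which did not enter the test. The log2 fold change, Rnls mutant over WT, was -1.34 ± 0.339 for S100a8, -0.84 ± 0.367 for S100a9 and -2.81 ± 0.843 for Retnlg (edgeR adjusted p = 0.118, 0.468 and 0.237). None of the 6 was called, beside 0.216% of genes called and 0.108% called lower. Among the grafts tested, S100a8 and S100a9 were lower in Rnls mutant grafts without overlap, as were 7.98% of genes. S100a8 passed without the filter on low counts (-1.48, edgeR adjusted p = 0.00310). With at least 20 cells asked of a graft S100a8 was at -1.56, but graft 1 alone stood for WT grafts of day 17, so no p-value is given. It did not pass with at least 1 cell (-0.58, adjusted p = 0.949). Retnlg likewise passed without the filter (-3.03, edgeR adjusted p = 1.13e-10), although the grafts tested overlapped. They held 868 to 8181 CPM in WT and 530 to 1117 CPM in Rnls mutant grafts. With at least 20 cells Retnlg was at -3.89, again with graft 1 alone for WT, and it was at -0.38 without graft 1 of the WT group at day 17.

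From day 10 to day 17 in WT grafts, S100a8 alone of the 6 passed the test within granulocytes, beside 2.7% of genes called and 1.08% called higher. Its log2 fold change was 1.68 ± 0.341 (edgeR adjusted p = 0.00903), from 3 grafts at day 10 and 2 grafts at day 17. S100a9 was at 1.08 ± 0.367 (edgeR adjusted p = 0.0914), Mmp9 at 1.63 ± 0.447 (0.0549), Retnlg at 2.24 ± 0.816 (0.113), Cxcr2 at 0.79 ± 0.499 (0.366) and Csf3r at 0.54 ± 0.363 (0.386). Without the filter on low counts S100a9 (1.34, edgeR adjusted p = 0.00338) and Retnlg (2.63, adjusted p = 4.99e-08) passed as well, and Retnlg was at -0.19 without graft 1 of day 17. S100a8, S100a9 and Mmp9 had no overlap between the 2 and 3 grafts, as had 14.9% of genes in that direction. The granulocytes of WT grafts at day 17 were also the deepest, as given above. With every cell thinned to 1000 UMIs S100a8 was at 1.27 (edgeR adjusted p = 0.0693), and with all grafts of at least 1 granulocyte it was at 0.85 (adjusted p = 0.546). Without graft 1 of day 17 it was at 1.48, with an edgeR adjusted p of 0.0908, and this was the only graft whose removal ended the call. That fit leaves 1 WT graft of day 17, which is assumed to vary like the other groups. The genes called higher with the smallest p were Dusp16, Tnfaip3, S100a8, Fpr1 and Lyst, and those called lower Cstb, H2-Eb1, Prdx1, Npc2 and Rps20.

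In Rnls mutant grafts none of the 6 was called within granulocytes between the days, beside 2.8% of genes. S100a8 was at 0.34 ± 0.287, S100a9 at 0.28 ± 0.310, Csf3r at 0.25 ± 0.291 and Mmp9 at 0.74 ± 0.337 (edgeR adjusted p = 0.565, 0.686, 0.696 and 0.250). Mmp9 was the only one without overlap, at 189 to 363 CPM in 4 grafts and 399 to 573 CPM in 3 grafts, where 10.6% of genes had none in that direction. The difference between the day effects of the genotypes was not called for any of the 6 (S100a8 -1.34 ± 0.449, edgeR adjusted p = 0.166, beside 1.29% of genes).

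**Figure D5:**
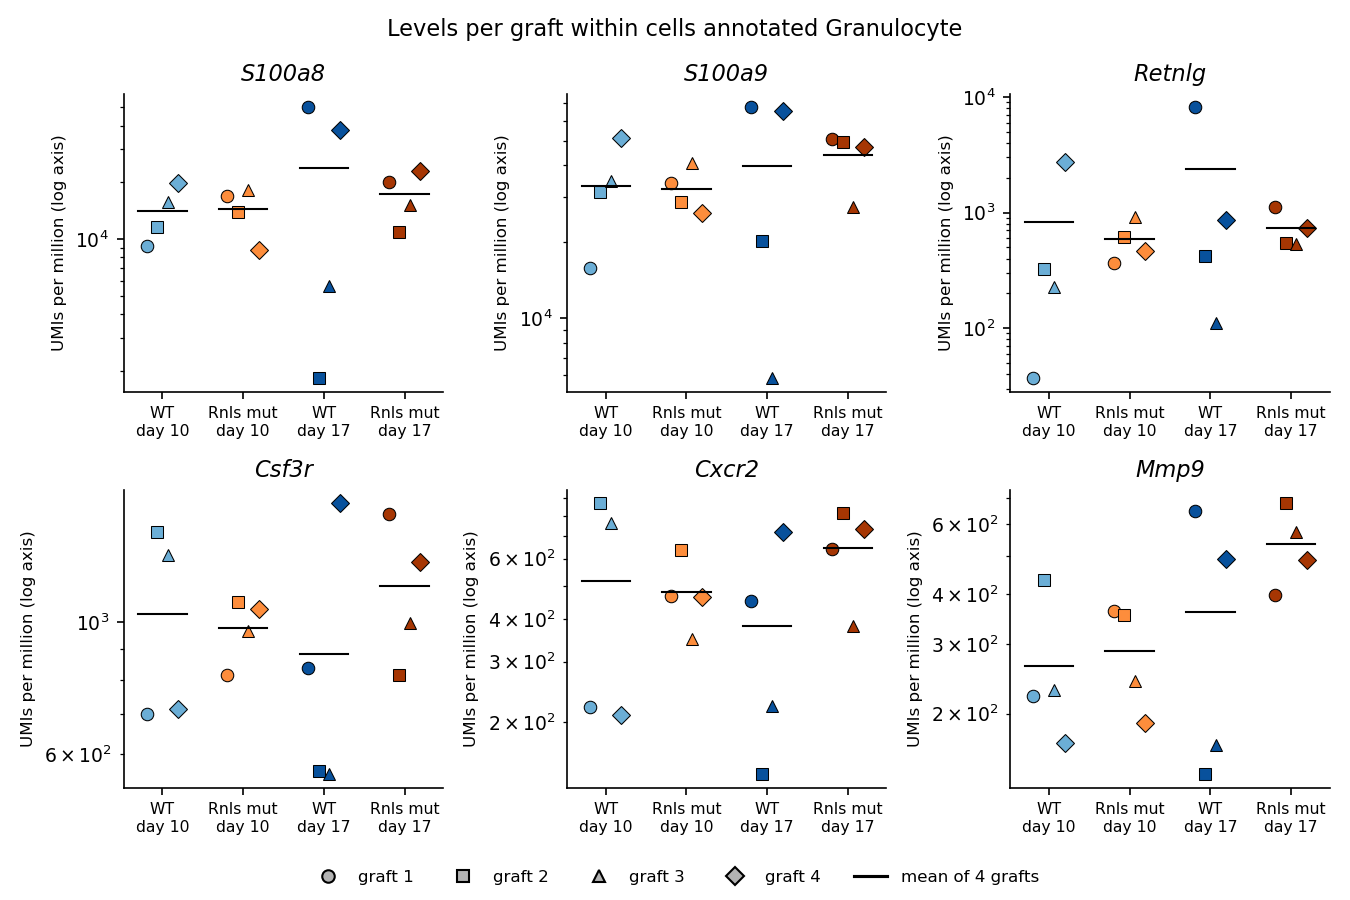
Level of each gene within the granulocytes of a graft (CPM, log axis), with symbols for grafts and a line at the mean of 4 grafts. Grafts 2 and 3 of the WT group at day 17 rest on 2 and 4 cells, and WT grafts 1 and 4 of day 17 hold the highest S100a8 and S100a9 levels.

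Only S100a8 and Csf3r passed the filter on low counts in macrophages and in monocytes. In macrophages S100a8 was 20.6, 10.6, 4.48 and 6.34 CPM in WT grafts and 38.2, 18.4, 14.0 and 29.0 CPM in Rnls mutant grafts at day 10, with an overlap between them. The log2 fold change was 1.18 ± 0.528 (edgeR adjusted p = 0.677, beside 0.0322% of genes called). At day 17 it was 10.9, 0, 21.1 and 8.81 CPM in WT grafts and 8.38, 7.20, 18.8 and 20.5 CPM in Rnls mutant grafts (log2 fold change -0.01 ± 0.457).

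From day 10 to day 17, macrophage S100a8 in Rnls mutant grafts was at -1.17 ± 0.503 and did not pass (edgeR adjusted p = 0.0711), beside 42% of genes called. It passed without the filter on low counts (-1.15, edgeR adjusted p = 0.0312), without the 6% of cells with the most UMIs (-1.54, adjusted p = 0.0160) and without the WT library of day 17 (-1.19, adjusted p = 0.0289). In WT grafts it was at 0.02 ± 0.531. The macrophage cluster with the highest S100a8 gave 19.9 and 40.0 CPM in WT and Rnls mutant cells at day 10 and 35.9 and 46.2 CPM at day 17. In Rnls mutant grafts this cluster held 742 of 1046 macrophages at day 10 and 172 of 3390 at day 17. In monocytes, S100a8 was 8.72 ± 4.57 and 10.1 ± 3.12 CPM at day 10, and neither gene was called in any comparison (background 0% between genotypes, 3.84% and 3.19% between days).

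The other granulocyte genes were described by 9 lists. Between the genotypes over all CD45+ cells, no gene of any list was called at either day. At day 10 the median log2 fold change, Rnls mutant over WT, was 0.60 for azurophil granule genes (2 of 5 tested), 0.67 for specific and gelatinase granule genes (6 of 8), 0.37 for receptors (10 of 10) and 0.60 for late granulocyte transcripts (12 of 13). It was 1.03 for ligands of CXCR2 and G-CSF (3 of 6), 0.16 for receptors and partners of S100A8 and S100A9 (6 of 7), -0.04 for MMP9 inhibitors (2 of 3), -0.13 for NADPH oxidase (6 of 6) and 0.37 for myeloid transcription factors (6 of 6), with 0.00 for all genes. At day 17 the medians ran from -1.53 (specific and gelatinase granules) to 0.39 (MMP9 inhibitors). The neutrophil markers, which hold the 6 genes, had a median of 1.39 at day 10 and -0.71 at day 17.

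Between the days, list members were called in both directions, where 20.5% of all genes were called higher and 17.5% lower in WT grafts, and 24.3% and 22.4% in Rnls mutant grafts. In WT grafts 2 of the 6 specific and gelatinase granule genes tested rose, Lcn2 (3.13, edgeR adjusted p = 0.0180) and Ltf, as did Cxcl1 (2.74, adjusted p = 0.00138) and Cxcl2 (1.45, adjusted p = 0.00572) among the ligands. Among the receptors reported here Cxcr4, Tlr2 and Fpr1 were higher. Late transcripts had 2 higher (Wfdc21 at 3.33 and Lrg1) and 2 lower (Mxd1, Ifitm1), transcription factors 3 higher (Cebpa, Cebpb, Cebpd), NADPH oxidase 1 higher (Cybb), MMP9 inhibitors 1 each way (Timp2 higher, Timp1 lower), partners 1 lower (S100a10) and azurophil granules none. Of these late transcripts, granulocytes gave 55.5% of Lrg1 UMIs, but 7.73% of Wfdc21, 5.15% of Mxd1 and 0.875% of Ifitm1 UMIs. Without the granulocytes Wfdc21 was at 3.37 (edgeR adjusted p = 0.0164). Without graft 1 of day 17 Lcn2 was at 1.41 and its adjusted p was 0.259, and without graft 3 Wfdc21 was at 1.18 with an adjusted p of 0.142. The call of Cxcl2, whose UMIs come mostly from other cells, held in all 23 alternatives.

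In Rnls mutant grafts Cxcl1 (1.54, edgeR adjusted p = 0.0259) and Wfdc21 (2.53, adjusted p = 0.0302) rose and Cxcl2 (0.47, adjusted p = 0.295) and Lcn2 (-0.52, adjusted p = 0.728) did not pass. The calls of Cxcl1 and Wfdc21 were lost in 6 and 8 of 24 alternatives, among them thinning (0.81 and 1.36, edgeR adjusted p = 0.150 and 0.126) and leaving out the 6% of cells with the most UMIs (1.14 and 1.75, adjusted p = 0.123 and 0.0643). Of specific and gelatinase granule genes 2 fell (Chil3, Ltf), among the receptors reported here Cxcr4 and Tlr2 rose and Trem1 fell, and of late transcripts 1 rose and 4 fell (Asprv1, Mxd1, Pglyrp1, Ifitm1). Of NADPH oxidase genes 3 rose and 1 fell (Rac2), of transcription factors 2 rose (Spi1, Cebpa) and 1 fell (Gfi1), and azurophil granules (Prtn3 up, Ctsg down), MMP9 inhibitors (Timp2 up, Timp1 down) and partners (Tlr4 up, S100a10 down) had 1 each way. Several of these genes are made by other cells, as granulocytes gave 0% of Ctsg, 1.47% of Cxcr4 and 0.0735% of Cebpa UMIs. Within granulocytes the calls were few. Ngp was called lower in Rnls mutant grafts at day 17, but 267 of its 285 UMIs came from the 5 WT cells with most Retnlg, and the call was lost without their graft. Fpr1, a receptor for formyl peptides, and Hdc, which makes histamine, rose from day 10 to day 17 in WT grafts.

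The genes with the most similar pattern were sought by Pearson's r on log2(CPM + 1), as a description without a test. Over the 16 grafts, which share 4 libraries, S100a8 was closest to Hdc (r = 0.945), S100a9 (0.911) and Cxcr2 (0.888), and S100a9 to Hdc (0.961). Cxcr2 was closest to Stfa2l1 (0.936) and Hdc (0.930), and Retnlg to Lcn2 (0.890). Csf3r stood apart, with Lyrm4 (0.939), Ets2 (0.923) and Gm38335 (0.923), and Mmp9 with Ednra (0.884) and Btg2 (0.867). Over the 12 cell types, which differ in depth and number of cells, S100a8 was closest to F3 (0.991), S100a9 to Il1f9 (0.982), Retnlg to Cstdc5 (1.0), Csf3r to Hp (0.992), Cxcr2 to Retnlg (0.992) and Mmp9 to 4933432I03Rik (0.990).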

How the data were processed

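CD45+ cells of 16 grafts were measured by droplet RNA sequencing in 4 libraries. The values are UMI counts per gene and cell as deposited by the authors, who aligned to mm10 with Cell Ranger (version not given in the sources used here), assigned hashtags and annotated cell types. No deposited cell had fewer than 1001 UMIs. Total counts per graft ran from 1742746 to 9729233.

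Counts were summed per graft over all CD45+ cells and over granulocytes, macrophages and monocytes, with at least 10 cells per graft. Sums were tested across all genes with edgeR 4.0.16 in R 4.3.3 (quasi-likelihood, TMM scaling, filterByExpr, all 4 groups in 1 fit, no block, adjusted p under 0.05). The SE given with an edgeR log2 fold change was derived from the test, as the absolute fold change over the square root of its F statistic. WT and Rnls mutant grafts sat on opposite flanks of shared mice, but the labels do not tell which grafts share a mouse, so the tests treated grafts as independent. DESeq2 1.42.0 was an alternative, and the steps were tested on simulated data. Granulocyte shares were compared by two-sided exact permutation tests (SciPy 1.17.1), adjusted over 12 cell types. Levels are CPM. Detection was also counted with each cell thinned to 1000 UMIs. Intervals are exact binomial at 95%. Doublets were not called, and the 6% of cells with the most UMIs were left out as an alternative.

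The 6 genes, the 9 lists of granulocyte genes and the marker lists were chosen with earlier results of these data known. The named genes were the 6, the markers, up to 4 genes of each list with the highest level over all CD45+ cells, every list gene called, the 5 genes per direction with the smallest p where 1 of the 6 was called, and up to 3 genes most like each of the 6. Other list genes, leading genes of clusters and the MHC class II genes were named after their values were seen. Gene positions came from GENCODE GRCm38, where 31424 of 32285 genes were found (97.3%), and promoters from RefSeq GRCm38.p6. The calls of 1 listed receptor gene are not reported here.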

Additional observations from a re-analysis of the deposited data

Results flagged for a closer look

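Among 48 groups of 4 grafts, in each of which the highest and the lowest graft were compared with the range of the group by Dixon's criterion, 3 held a graft that stood apart. Chance gives about 1 in 20 groups. Over all CD45+ cells, Retnlg stood at 7.94 CPM in graft 4 of the WT group at day 10, against 0.124 to 0.663 CPM in the other 3 grafts. In the WT group at day 17, Retnlg stood at 164.0 CPM in graft 1, against 0.719 to 9.64 CPM in the other 3. The 5 cells with most Retnlg, which held 710 of its 1110 UMIs, all came from that graft. The granulocyte share was lowest in graft 4 of the Rnls mutant group at day 10, with 2.01% against 3.19% to 3.25% in the other 3 grafts.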

How the results depend on the processing

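Of 1473 values recomputed under an alternative, 1201 kept their direction and their side of the threshold or moved within the spread, 166 moved further, 42 lost a call, 20 gained one and 44 changed sign. Where a value changed below, the cause was not tested. Depth limits the granulocytes, with a median of 1319 UMIs per cell, and the number of cells limits WT grafts of day 17, where 2 of 4 grafts had fewer than 10 granulocytes. Alternatives that thinned the cells, left out the granulocytes, left out the WT library of day 17 or asked for 1500 UMIs were chosen after seeing the data.

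Counts of genes called over all CD45+ cells were 10 between genotypes at day 10, 2 at day 17 and 18 for the change between the days. DESeq2 gave 83, 30 and 98. Without the filter on low counts the first and second were 6 and 0. Without the 6% of cells with the most UMIs the second was 0 and the third 31. Thinning gave 4, 0 and 9, and 2566 and 3619 between the days in WT and Rnls mutant grafts (4764 and 5868 unthinned). Without the granulocytes the count at day 17 was 1, and without the WT library of day 17 that at day 10 was 53. Within granulocytes the counts were 9, 2 and 12 in the same order, with 25 and 26 between the days in WT and Rnls mutant grafts. Without the filter they were 24, 10 and 21, and 42 in WT grafts. With at least 1 cell per graft they were 3, 1 and 6, and 3 and 13 between the days. With at least 20 cells they were 15 at day 17 and 71 in Rnls mutant grafts. Thinning gave 1, 1 and 2, and 8 in WT grafts, and DESeq2 gave 1 at day 17 and 19 for the change.

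In monocytes the counts were 0 between genotypes and 311 and 258 between the days. DESeq2 gave 2 at day 10, 3 for the change and 437 in Rnls mutant grafts. Without the filter they were 19, 20 and 9, and 639 and 698 between the days. With at least 20 cells the count in Rnls mutant grafts was 125. Without the WT library of day 17 it was 624, and 1 between genotypes at day 10. In macrophages the counts of 3, 0 and 3 became 16, 13 and 43 with DESeq2. Without the filter they were 12 at day 10 and 9 for the change, and without the 6% of cells with the most UMIs 7 for the change.

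The labels do not say which hashtags mark grafts of the same mouse, and the hashtag numbers were not taken as pairs, since the correlations of deviations between same-numbered grafts ran from -0.198 to 0.376 over all CD45+ cells. With a replicate block on the number, the counts were 3, 0 and 6 over all CD45+ cells, 3, 1 and 2 within granulocytes, and 0 at day 10 and 1 for the change in macrophages. Under the block Cxcr2 was at 0.0872 over all CD45+ cells at day 17, and S100a9 and Retnlg within granulocytes at day 10 were at 0.11 and 0.00171, each with its sign changed.

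Further values changed sign. Without the granulocytes, S100a9 (-0.26) and Csf3r (-0.0734) turned at day 10 and S100a8 (0.16) between the days in Rnls mutant grafts. With thinning, Csf3r at day 17 was at -0.00804 and Mmp9 between the days in Rnls mutant grafts at -0.25. Within granulocytes at day 10, S100a8 was at 0.46 without the filter, 0.0546 with at least 1 cell and 0.0651 thinned, and S100a9 at 0.44 without the filter and 0.0190 thinned. At day 17 S100a9 was at 0.0195 with at least 1 cell. For the granulocyte share, the difference between the days in WT grafts was 1.89 points among cells with at least 1500 UMIs, and in Rnls mutant grafts -5.64 points of myeloid cells (exact permutation p = 0.0286 for both). Without thinning, cells with a UMI were 65.6% for Csf3r, 42.3% for Cxcr2 and 37.7% for Mmp9 in granulocytes, 6.31% for S100a8 and 24.4% for Csf3r in macrophages, and 3.41% and 22.3% in monocytes.

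Leaving out each graft in turn gave 4 to 23 genes called at day 10 over all CD45+ cells, 1 to 127 at day 17 and 8 to 180 for the change, both highest without graft 3 of the WT group at day 17. Within granulocytes the ranges were 4 to 25 at day 10, 0 to 4 at day 17, 10 to 49 and 3 to 40 between the days in WT and Rnls mutant grafts, and 4 to 19 for the change. In monocytes they were 0 to 1, 0 to 3, 36 to 1299 and 83 to 602, and in macrophages 1 to 4 at day 10 and 1 to 9 for the change. Over all CD45+ cells at day 17, Retnlg ran from -4.11 to 0.21, Csf3r from -0.0294 to 0.34, Cxcr2 from -0.98 to 0.52 and Mmp9 from -1.29 to 0.0633. Between the days in Rnls mutant grafts S100a8 ran from -1.03 to 0.28, S100a9 from -1.15 to 0.15 and Mmp9 from -0.10 to 0.61. Within granulocytes at day 10, S100a8 ran from -0.24 to 0.33, S100a9 from -0.36 to 0.48 and Retnlg from -1.42 to 2.59, and Retnlg between the days in WT grafts from -0.19 to 5.64. The difference in granulocyte share at day 17 ran from -1.08 to 0.31 points.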

Other observations

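MHC class II transcripts, which present antigen to CD4 T cells and are not a product of resting neutrophils, differed between the granulocytes of the 4 libraries. H2-Aa was found in 14 of 50 granulocytes of WT grafts and 16 of 192 of Rnls mutant grafts at day 10, and in 20 of 57 of WT grafts and 28 of 70 of Rnls mutant grafts at day 17. Its level was 1162, 85.0, 306 and 513 CPM in the same order, and that of Cd74 was 2870.0, 518, 706 and 677 CPM. Lymphocytes of the same libraries held 93.8, 42.0, 91.0 and 257 CPM of H2-Aa, and macrophages 6187 to 9128 CPM. The part of RNA from other cells in these counts was not tested.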
